A study of Mus musculus with 16 samples.

Results

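The 9 long non-coding RNAs (lncRNAs) described here are *Fendrr*, *Lncppara*, *4930461G14Rik*, *A930037H05Rik*, *A930004J17Rik*, *4933431K23Rik*, *4932443L11Rik*, *Gm48591* and *2500002B13Rik*. They are 9 of 1282 lncRNA names and of 12080 RNA names in the data, and 9 of the 572 lncRNAs found in both conditions. They were chosen on the measured change in their number of RNA–DNA interaction pairs between H3K27me3-RADIP and Input, so that change is given as a description and carries no test. Most had few pairs, and only *4930461G14Rik* had over 100 in a table. Their genes span 4.61 kb (*A930004J17Rik*) to 159 kb (*4933431K23Rik*) and 7 of the 9 are shorter than the median of 45.9 kb over the 557 of the 572 lncRNAs with a gene model.

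In RADIP, RNA is ligated to nearby DNA through an adaptor in fixed nuclei, and the chimeras are then precipitated with an antibody against H3K27me3, the repressive histone mark that Polycomb repressive complex 2 (PRC2) deposits. Both conditions used mouse embryonic stem cells (mESCs) of the line PGK12.1, grown with leukemia inhibitory factor and fixed with 1% formaldehyde. Input was made from the same ligated chromatin with no antibody, and H3K27me3-RADIP was made after selection with the antibody. The labels list 8 libraries per condition, from 4 biological replicates per the study's methods, and all were merged into 1 table each, so there is no error between replicates and no test between conditions.

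Input held 1305107 significant pairs and H3K27me3-RADIP 1415135, of which 39083 and 51049 had a lncRNA as the RNA. Both tags of a pair are 25 bases long, and each table lists the pairs of an RNA with a 25-kb bin of the genome only where the authors' q-value was at most 0.1. The smallest number of pairs listed for any RNA in any bin was 7 in both tables. A bin that is not listed may therefore hold pairs below this limit, and "not listed" is used here in place of 0. Of the RNAs that mark mESCs, *Esrrb* had 2388 Input pairs and 2500 H3K27me3-RADIP pairs, *Zfp42* had 130 and 98, *Sox2* was listed in H3K27me3-RADIP alone with 8 pairs, and *Pou5f1*, *Nanog* and *Dppa3* were listed in neither table.

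Many lncRNA genes lie beside or inside coding genes, often on the opposite strand, and RNA that is still being made lies close to the DNA it is copied from. PRC2 is known for silencing developmental genes in mESCs, mostly at promoters rich in CG dinucleotides, and its contact with RNA is a long-studied question. *Fendrr*, transcribed away from *Foxf1*, a forkhead transcription factor of the lateral mesoderm, is a lncRNA known from work on the heart and body wall that has been linked to PRC2. *Lncppara* overlaps the genes of 2 let-7 microRNAs, *Mirlet7c-2* and *Mirlet7b*, small RNAs known for repressing growth and pluripotency genes.

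The promoter windows of 3 of the lncRNAs are shown first, because they differ in the sequence feature for which PRC2 targets are known. The table of RefSeq promoter windows on GRCm38.p6, each with 250 bases before and 50 bases after a start, held 6 of the 9 lncRNAs. CG dinucleotides are in capitals, and each window is written in the direction of transcription. *Fendrr* (chr8:121083061-121083360, minus strand) was chosen as a CG-rich window, *4930461G14Rik* (chr9:58454923-58455222, plus strand) as the window of the lncRNA with the most pairs, and *2500002B13Rik* (chr8:57487713-57488012, plus strand) as that of the lncRNA with fewer pairs after selection.
Fendrr: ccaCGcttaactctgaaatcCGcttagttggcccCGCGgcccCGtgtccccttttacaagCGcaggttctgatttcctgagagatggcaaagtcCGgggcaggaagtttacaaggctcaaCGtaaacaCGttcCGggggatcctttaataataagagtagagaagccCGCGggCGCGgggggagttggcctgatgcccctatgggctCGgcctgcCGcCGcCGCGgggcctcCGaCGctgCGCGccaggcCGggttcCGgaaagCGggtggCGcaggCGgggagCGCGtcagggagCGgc
4930461G14Rik: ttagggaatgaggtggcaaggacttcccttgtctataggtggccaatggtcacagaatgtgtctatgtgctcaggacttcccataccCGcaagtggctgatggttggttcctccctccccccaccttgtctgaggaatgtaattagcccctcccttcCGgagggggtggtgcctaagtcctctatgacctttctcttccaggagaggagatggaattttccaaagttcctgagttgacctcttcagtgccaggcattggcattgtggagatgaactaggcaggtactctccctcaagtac
2500002B13Rik: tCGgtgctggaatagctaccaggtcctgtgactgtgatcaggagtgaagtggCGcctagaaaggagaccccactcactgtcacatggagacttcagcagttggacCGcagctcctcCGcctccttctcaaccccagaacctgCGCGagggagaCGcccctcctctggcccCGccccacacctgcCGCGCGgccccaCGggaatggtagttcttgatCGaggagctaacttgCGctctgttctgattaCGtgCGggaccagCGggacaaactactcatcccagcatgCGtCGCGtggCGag
The *Fendrr* window held 31 CG, a number that 10.6% of all 32851 windows reached. The *4930461G14Rik* window held 2, which 85.9% of windows reached, and the *2500002B13Rik* window held 21, which 24.8% reached. A second *2500002B13Rik* window inside the gene held 0 CG. The *A930037H05Rik* window held 32. The windows of *Lncppara* and *4933431K23Rik*, with 4 and 1, start 50.2 kb and 48.3 kb inside the gene models used here and so are not at the starts of these genes. Only 1 DNA tag of these 6 lncRNAs lay in a window of its own gene, that of the *2500002B13Rik* pair at *Sap30* printed in the next paragraph.

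The tag pairs that follow show what was measured at the starts of coding genes outside the lncRNAs' own genes, and each is, among the pairs of that lncRNA with a DNA tag outside its own gene, the one nearest to a start of the gene named. The bases were read from the GRCm38 genome at the coordinates of the tags, with the RNA tag in capitals on the strand of the RNA and the DNA tag in lower case on the plus strand. The *Fendrr* pair has its RNA tag at chr8:121080265-121080289 and its DNA tag at chr8:121086744-121086768, inside *Foxf1*.
Fendrr RNA tag: CTGTCCCCCAGATTAAAAAGCAAAC
Fendrr DNA tag in Foxf1: gcccagcatgtgtgacagaaaggag
4930461G14Rik RNA tag: GAGAGACAAGGTTCCCTTTCTTTTT
4930461G14Rik DNA tag at Stra6: aggtctaggtctgggagggggctgc
4930461G14Rik second RNA tag: TGATGGCATTTCTAAGGGAAAGGCA
4930461G14Rik DNA tag at Hcn4: gcgctcgggagcggttcccggagcg
4932443L11Rik RNA tag: AGACTAGCCAGGGCTGTTTAGGAAG
4932443L11Rik DNA tag at Prr36: atgcctccggcttccagattcaggg
2500002B13Rik RNA tag: TTCGCAAAGTTAGTGTTCAGACCGC
2500002B13Rik DNA tag at Sap30: tctcaaccccagaacctgcgcgagg
The DNA tags lay 2370 bp from the start of *Foxf1*, 66 bp from a start of *Stra6* (chr9:58129403-58129427), 244 bp from the start of *Hcn4* (chr9:58823156-58823180), 4 bp from a start of *Prr36* (chr8:4216896-4216920) and 11 bp from a start of *Sap30* (chr8:57487837-57487861). The distance between the RNA tag and the DNA tag was 6.48 kb for the pair in *Foxf1*, 329 kb for that at *Stra6*, 366 kb for that at *Hcn4*, 19.9 kb for that at *Prr36* and 0.303 kb for that at *Sap30*. The first 4 pairs were from H3K27me3-RADIP and the last was from Input. The pair in *Foxf1* was listed in 2 identical lines, which without molecular identifiers may be 2 molecules or 1 molecule amplified, and the others were single lines.

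The 9 lncRNAs together had 275 Input pairs and 619 H3K27me3-RADIP pairs, and in both tables all of their DNA tags lay on the chromosome of the gene. By the pair counts that chose them, 8 of the 9 were higher in H3K27me3-RADIP by at least 0.5 on the log2 scale and 1 was lower by at least 0.5, after scaling the tables to each other by a trimmed mean over the shared lncRNAs. Among all 572 lncRNAs, 24.3% were higher by that much and 23.6% lower, and the median log2 fold change was -0.02. Nothing follows from the members' count beside this background, since the count was fixed by their choice.

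*Lncppara* went from 12 Input pairs to 60 after selection, with a log2 fold change of 2.20 (exact 95% interval 1.29 to 3.23), rank 2 of the 572. In the same order *4933431K23Rik* had 10 and 41 pairs (1.91, 0.89 to 3.07) and *Fendrr* had 11 and 41 (1.77, 0.79 to 2.88). These 3 had the largest fold changes of the 9, from 12 pairs or fewer in Input. *4932443L11Rik* had 12 and 40 pairs (1.61, 0.65 to 2.68), and *Gm48591*, with 21 and 70 pairs, had the same fold change with a narrower interval (0.89 to 2.39). *A930004J17Rik* had 9 and 25 pairs (1.35, 0.20 to 2.63) and *A930037H05Rik* had 25 and 61 (1.16, 0.47 to 1.90). *4930461G14Rik* had the most pairs, 123 and 263, and the smallest fold change of the 8 (0.97, 0.66 to 1.29). *2500002B13Rik* went the other way, from 52 pairs to 18 (-1.66, -2.52 to -0.86), rank 555 of the 572. The intervals cover counting error only and overlap among the 8, so no order among them is read.

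**Figure D1:**
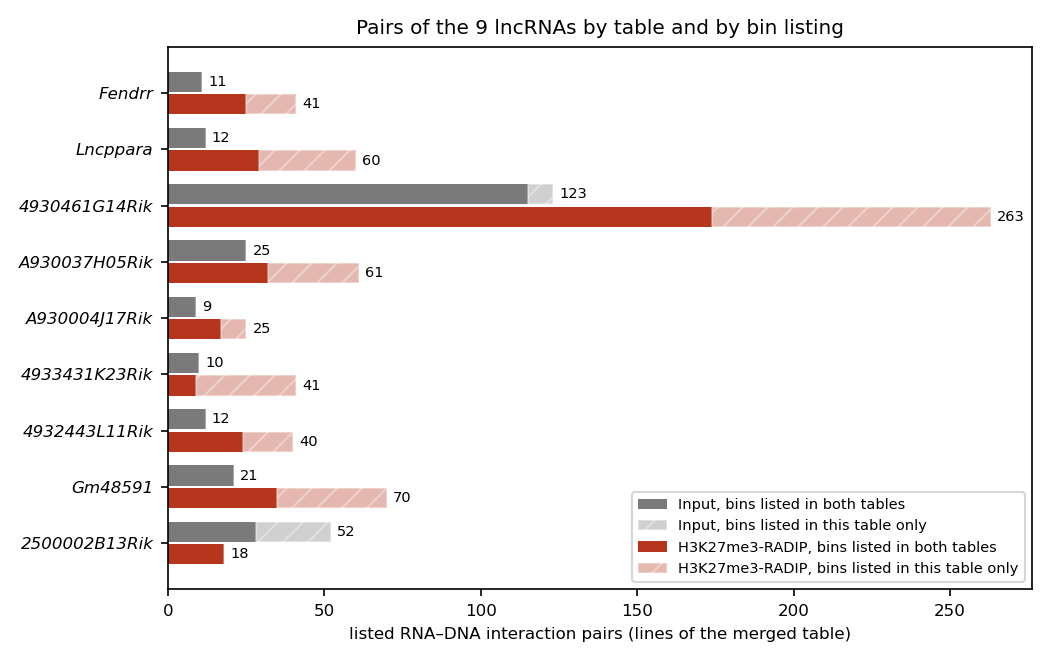
Pairs listed for each of the 9 lncRNAs in Input (grey) and H3K27me3-RADIP (red), with the solid part from bins that both tables list and the hatched part from bins that 1 table lists. The hatched part makes up 89 of the 263 *4930461G14Rik* pairs in H3K27me3-RADIP and 24 of the 52 *2500002B13Rik* pairs in Input.

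Where the added pairs lay was compared bin by bin. The 9 lncRNAs had 46 combinations with a bin, 22 in Input and 42 in H3K27me3-RADIP. Of the 46, 18 were listed in both tables, 24 (52.2%) in H3K27me3-RADIP alone and 4 (8.70%) in Input alone. Over all 4100 combinations of a lncRNA with a bin, 40.8% were in H3K27me3-RADIP alone and 22.0% in Input alone. The number of bins and the number of pairs come from the same lines, so this too is a description. Of the 24 bins listed in H3K27me3-RADIP alone, 12 had 7 or 8 pairs, at the edge of what the tables list, and 6 had 14 pairs or more. In 6 of the 24 the DNA tags had fewer than 7 distinct positions. The 4 bins listed in Input alone had 8 pairs each. Of the 24, 11 touched the lncRNA's own gene and 13 lay off it.

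Bins that both tables list were then taken alone. For the lncRNAs with no bin in Input alone this removes only H3K27me3-RADIP pairs, so a smaller change follows by construction. Of the 18 shared bins 12 had more pairs in H3K27me3-RADIP and 6 had fewer, and 8 were higher and 3 lower by at least 0.5 on the scaled log2 scale. Over all shared lncRNA and bin combinations 19.5% were higher and 18.8% lower by that much. Over its shared bins alone, *Lncppara* had 12 Input pairs and 29 after selection (1.15, 0.13 to 2.25) and *4930461G14Rik* had 115 and 174 (0.47, 0.12 to 0.82). *Fendrr* had 11 and 25 (1.06, -0.02 to 2.23), *4932443L11Rik* 12 and 24 (0.87, -0.18 to 2.01), *A930004J17Rik* 9 and 17 (0.79, -0.45 to 2.14) and *Gm48591* 21 and 35 (0.61, -0.21 to 1.47). *A930037H05Rik* had 25 and 32 (0.23, -0.57 to 1.05), and *4933431K23Rik* had 10 and 9 (-0.28, -1.75 to 1.18). *2500002B13Rik* had 28 and 18 (-0.76, -1.70 to 0.14), and its value with unlisted bins filled as described next was -0.54. Thus 5 of the 8 stayed at 0.5 or more over shared bins. Of all 495 lncRNAs with such bins, whatever their change over all bins, 11.5% were at 0.5 or more. Nothing is read from the members' count beside this share, for the same reason as above. With each bin that a table did not list filled in with 1 pair fewer than the lowest number listed there for that RNA, an upper guess chosen after the data were seen, 3 of the 8 were at 0.5 or more: *Fendrr* (0.84), *Lncppara* (0.69) and *Gm48591* (0.51). For *4933431K23Rik* and *A930037H05Rik* the filled values were -0.29 and -0.05, while over shared bins *4933431K23Rik* was also below 0 and *A930037H05Rik* was above it. The lowest numbers listed for these 2 were 10 and 12 in Input but 7 and 8 in H3K27me3-RADIP. The Input fill may therefore exceed what an unlisted bin could hold, and no direction is read from the filled values.

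**Figure D2:**
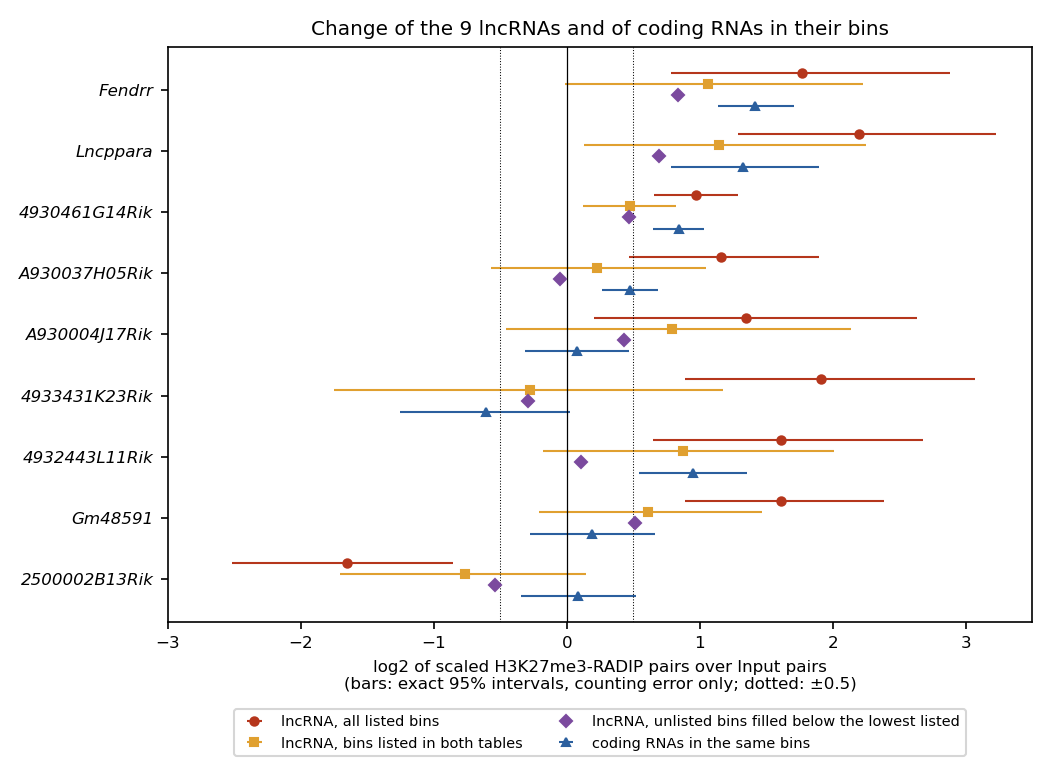
Log2 ratio of H3K27me3-RADIP over Input for each lncRNA over all its listed bins (circles), over bins in both tables (squares) and with unlisted bins filled (diamonds), and for coding RNAs in the same bins (triangles), with exact 95% intervals for counting error. The circles lie at or above 0.97 for 8 lncRNAs, while the squares and diamonds lie nearer to 0, with both below it for *4933431K23Rik* and the diamond below it for *A930037H05Rik*.

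*Fendrr* (chr8:121054882-121083110, minus strand) was listed in 1 bin in Input and 2 in H3K27me3-RADIP. The bin over the body and end of its gene (chr8:121050000-121074999) held 11 Input pairs and 25 H3K27me3-RADIP pairs. The bin with the *Fendrr* start (chr8:121075000-121099999), which also holds the start of *Foxf1*, was not listed in Input and held 16 pairs in H3K27me3-RADIP. The 2 tags within 2 kb of the *Foxf1* start, the nearer at 1827 bp, lay inside the *Fendrr* gene. The 2 lines with a DNA tag inside *Foxf1* are the repeated pair printed above, and no *Fendrr* tag lay in *Foxc2*, *Foxl1* or *Irf8*, the next regulators along the chromosome, in either table. RNAs of *Foxf1*, *Foxc2*, *Foxl1* and *Irf8* were listed in neither table. The RNA and DNA tags lay a median of 2.96 kb apart before selection and 0.812 kb after it, when 21 of 41 pairs were under 1 kb apart. The DNA tag lay inside the *Fendrr* gene in 10 of 11 Input pairs and in 37 of 41 H3K27me3-RADIP pairs.

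Coding RNAs in the *Fendrr* bins went from 138 pairs in Input to 400 in H3K27me3-RADIP, a log2 ratio of 1.42 per library total (1.14 to 1.71), and from 4 RNAs to 9. Most came from *Galnt2l*, with 109 and 235 pairs, a gene model of several megabases that runs over *Fendrr* on the other strand and had 11135 and 15156 pairs in all. In these bins *Slc7a5*, which encodes an amino acid transporter, had 8 and 39 pairs, *Ankrd11*, which encodes a chromatin regulator, had 9 and 31, and *Mthfsd* had 12 and 26. *Wwox*, which encodes an oxidoreductase, and *Zcchc14* were listed there in H3K27me3-RADIP alone, with 22 and 21 pairs. Without *Galnt2l* the coding pairs were 29 and 165. The lncRNA *Malat1*, transcribed from another chromosome, was listed in the *Foxf1* bin in H3K27me3-RADIP alone, with 14 pairs. The RNA with bins most like those of *Fendrr* was *Mthfsd*, a share of 33.3% of the bins of either.

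*Lncppara* (chr15:85653616-85707524, plus strand) had 12 pairs in 1 bin in Input. In H3K27me3-RADIP it had 29 pairs in that bin, 14 in the bin upstream (chr15:85650000-85674999) and 17 in the bin downstream (chr15:85700000-85724999), all 3 touching its own gene. In Input 0 of 12 DNA tags lay outside the gene, and in H3K27me3-RADIP 11 of 60 did, 10 of them past its end. The 1 bin that Input listed lies wholly inside the gene, so the Input 0 follows from which bins were listed. None reached *Ppara*, a nuclear receptor of fatty acid metabolism that starts downstream, or *Wnt7b*, a signalling ligand upstream, and the nearest tag to a coding start lay 10019 bp away. All RNA tags of *Lncppara* were intronic in both tables. *Atxn10* RNA had 39 and 69 pairs in the 3 bins, *Gtse1*, a regulator of the cell cycle, had 16 in H3K27me3-RADIP alone, and all coding pairs were 39 and 106 (1.33, 0.78 to 1.89).

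**Figure D3:**
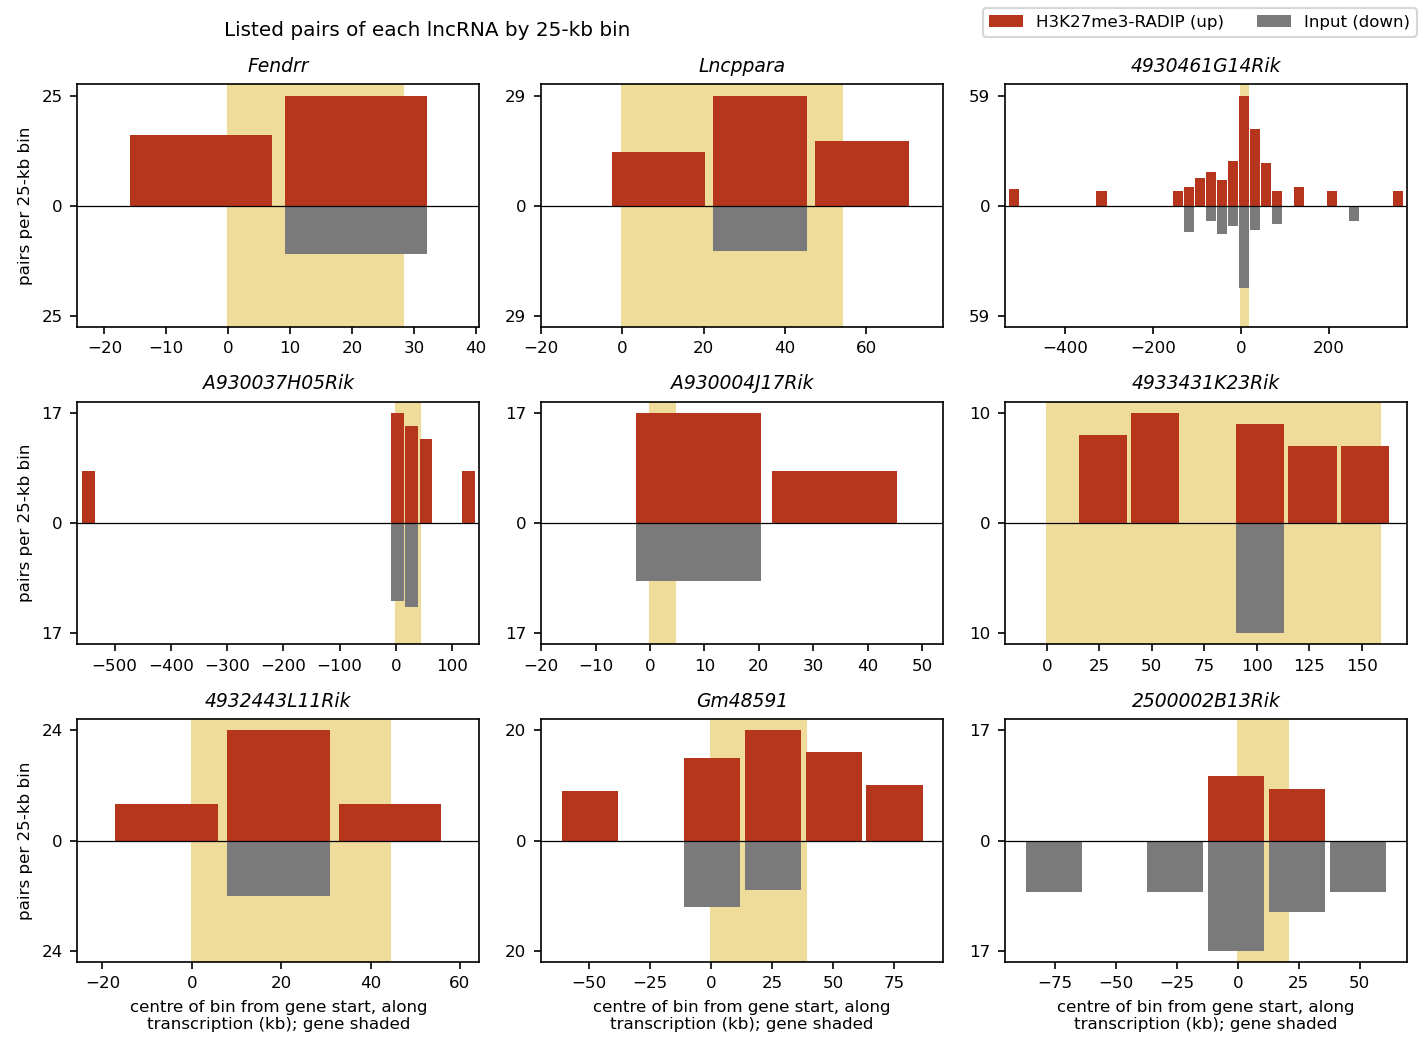
Pairs per 25-kb bin for each lncRNA against the distance of the bin centre from the gene start along transcription, H3K27me3-RADIP upwards and Input downwards, with the gene shaded and a separate scale for each panel. Bins off the gene are few except for *4930461G14Rik*, and *2500002B13Rik* alone has more bins below the line (5) than above it (2).

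*4930461G14Rik* (chr9:58455122-58469635, plus strand), the one lncRNA annotated as a lincRNA, had the most bins, 16 of the 46. Its own bin held 44 pairs in Input and 59 in H3K27me3-RADIP, and the bin past its end, where *Insyn1* starts, held 13 and 41. The next bin (chr9:58500000-58524999) was not listed in Input and held 23, the largest number in a bin listed in H3K27me3-RADIP alone. Upstream, the bins that end 5.12, 30.1, 55.1 and 105 kb before the start held 11 and 24, 15 and 14, 8 and 18, and 14 and 10 pairs, and the bin that ends 80.1 kb before it was listed in H3K27me3-RADIP alone with 15. Pairs over 100 kb apart numbered 22 of 123 before selection and 64 of 263 after it, and the farthest lay 264 kb and 534 kb apart. Outside the gene the DNA tags fell on both sides, 52 upstream and 42 downstream in Input and 110 and 115 in H3K27me3-RADIP.

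The bins of *4930461G14Rik* listed in H3K27me3-RADIP alone included those with the starts of *Stra6*, the cell-surface receptor for retinol-binding protein, and *Hcn4*, a pacemaker ion channel of the heart. Each held 8 pairs, the *Stra6* bin at a q-value of 0.0432, and so near the limit of listing. All 8 tags of the *Stra6* bin lay in the *Stra6* gene, at 7 distinct positions, and 1 was within 2 kb of a start. In the *Hcn4* bin 3 tags lay within 2 kb of the start and 2 within the gene. *Sema7a*, which encodes a semaphorin, also starts in a bin listed in H3K27me3-RADIP alone, with 9 pairs at 6 distinct DNA positions, and 4 tags there lay within 2 kb of its starts. The only bin that Input alone listed (chr9:58700000-58724999) held 8 pairs, as many as those at *Stra6* and *Hcn4*. In all, 7 of 123 tags (5.69%, 2.32% to 11.4%) lay within 2 kb of a coding start in Input and 28 of 263 (10.6%, 7.19% to 15.0%) in H3K27me3-RADIP. In bins that both tables list, *Insyn1* had 4 in Input and 6 in H3K27me3-RADIP, and *Cd276* had 3 and 2. All other tags near a start lay in bins that Input did not list, so no difference is read from the 2 shares.

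Coding RNAs in the 16 bins of *4930461G14Rik* had 337 Input pairs and 655 H3K27me3-RADIP pairs (0.84, 0.65 to 1.04). *Nptn*, which encodes the adhesion molecule neuroplastin, had 211 and 300 of them, *Pml*, the organiser of PML nuclear bodies, had 55 and 144, and *Neo1*, which encodes the receptor neogenin, had 11 and 62. *Nptn* shared 15 of the 16 bins, 41.7% of the bins of either, and *Pml* shared 10, 29.4%. In the lncRNA's own bin no coding RNA was listed in Input, and *Nptn* (13), *Pml* (8) and *Arih1* (8) were listed in H3K27me3-RADIP. In the *Stra6* bin *Stra6* RNA had 11 and 23 pairs and *Pml* RNA 14 and 25. Over all bins *Stra6* RNA had 44 and 75 pairs and *Hcn4* RNA 25 and 15.

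**Figure D4:**
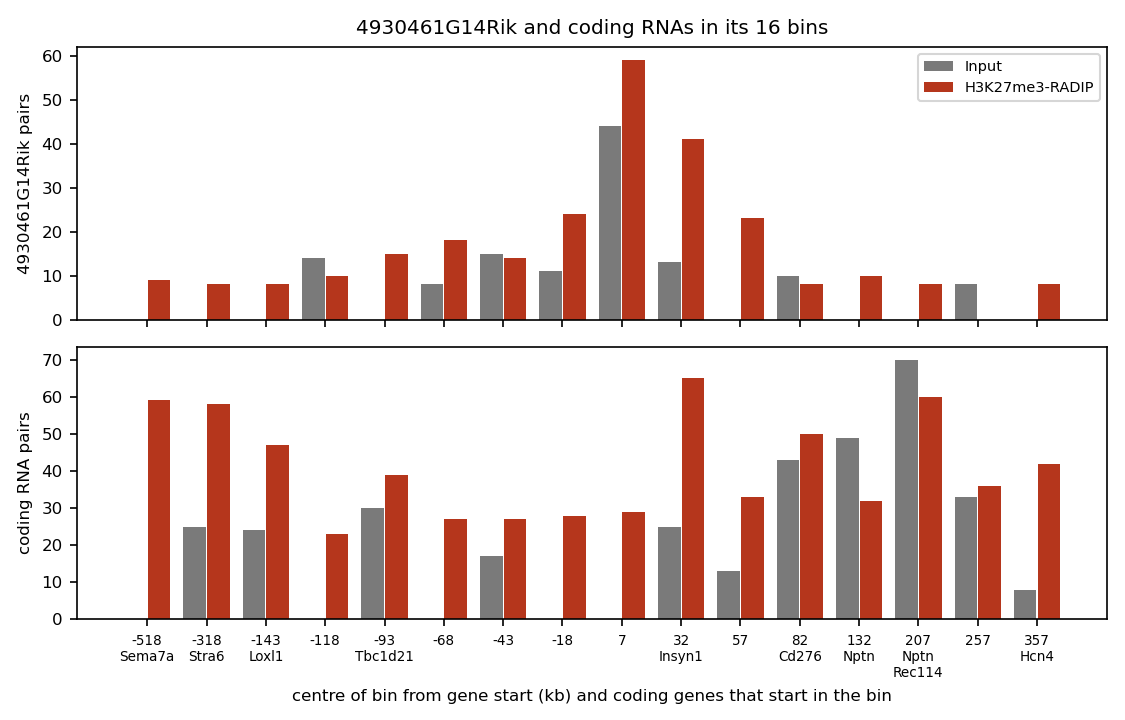
Pairs of *4930461G14Rik* (top) and of coding RNAs (bottom) in each of its 16 bins, ordered by distance from its start, in Input (grey) and H3K27me3-RADIP (red); no bar means that the table lists no pair. Coding RNAs have no listed pair in Input in 5 of the bins, among them the lncRNA's own, and between 23 and 65 pairs in H3K27me3-RADIP in all 16.

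*4932443L11Rik* (chr8:4162522-4206882, minus strand) is antisense to *Evi5l*, a regulator of Rab GTPases. Its Input pairs, 12, lay in 1 bin (chr8:4175000-4199999), which held 24 in H3K27me3-RADIP, and the bins on either side were listed in H3K27me3-RADIP alone with 8 each. DNA tags within 2 kb of the start of any annotated transcript of a coding gene numbered 4 of 12 before selection and 25 of 40 after it. Of the 25, 24 were at starts of *Evi5l* transcripts, which the lncRNA gene itself overlaps, and 1 at *Prr36*. The *Evi5l* gene starts at chr8:4166567, in a bin with 8 of the 40 pairs. Most of the 24 therefore lay at transcript starts farther inside *Evi5l*. Outside its gene lay 0 of 12 Input tags and 6 of 40 H3K27me3-RADIP tags. The 1 bin listed in Input lies wholly inside the gene, so no listed Input tag could lie outside it. *Evi5l* RNA in the same bins had 27 and 65 pairs, *Elavl1*, which encodes the RNA-binding protein HuR, had 36 and 47, and *Prr36* was listed in H3K27me3-RADIP alone with 8. Coding pairs in all were 77 and 161 (0.95, 0.55 to 1.36).

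*A930037H05Rik* (chr11:119448788-119491298, minus strand) lies opposite *Rnf213*, a ubiquitin ligase, and its start is 49 bp from *Endov*, an endonuclease. The 2 bins over its start and body held 12 and 13 pairs in Input and 17 and 15 in H3K27me3-RADIP. H3K27me3-RADIP alone listed the bin at its end with 13, the bin of *Sgsh* and *Slc26a11* starts with 8, and a bin 534 kb from the gene (chr11:120025000-120049999), where *Aatk* starts, with 8 pairs at 5 distinct DNA positions and a q-value of 0.0338. In Input all 25 DNA tags lay inside the gene and in H3K27me3-RADIP 27 of 61 lay outside it (44.3%, 31.5% to 57.6%). *Rptor* RNA, of the mTORC1 subunit raptor, had 204 and 292 pairs in these bins and *Rnf213* RNA 72 and 92. In the *Aatk* bin coding pairs were 49 and 143, and over all its bins 307 and 463 (0.48, 0.26 to 0.69).

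*Gm48591* (chr10:121423664-121462694, minus strand) is a sense-intronic lncRNA of *Rassf3*, which encodes a Ras-association protein. Its 2 shared bins held 12 and 9 pairs in Input and 15 and 20 in H3K27me3-RADIP, in order from its start. H3K27me3-RADIP alone listed the bin at its end with 16, the next with 10, and one upstream (chr10:121500000-121524999) with 9, in which no coding RNA was listed in either table. DNA tags outside the gene numbered 2 of 21 (9.52%, 1.17% to 30.4%) in Input and 40 of 70 (57.1%, 44.7% to 68.9%) in H3K27me3-RADIP. *Rassf3* RNA had 38 and 48 pairs, and coding pairs in all were 71 and 88 (0.19, -0.27 to 0.66). *Rassf3* shared 4 of the 5 bins, 80.0% of the bins of either, the highest share for any of the 9. Only 1 *Rassf3* RNA tag lay within the *Gm48591* gene, in Input, and unspliced RNA of the host cannot be told apart from the lncRNA there.

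*A930004J17Rik* (chr4:131878628-131883237, plus strand) lies inside *Srsf4*, which encodes a splicing factor, on the same strand, and no tag within it was given to *Srsf4*, so here too host RNA cannot be told apart. Its own bin held 9 pairs in Input and 17 in H3K27me3-RADIP, and the next (chr4:131900000-131924999), with the start of *Tmem200b*, was listed in H3K27me3-RADIP alone with 8. DNA tags outside its gene numbered 2 of 9 and 18 of 25, the gene being shorter than a bin. *Srsf4* RNA had 53 and 42 pairs in the 2 bins, *Epb41*, of a membrane skeleton protein, had 31 and 49, and coding pairs in all were 104 and 119 (0.08, -0.31 to 0.47).

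*4933431K23Rik* (chr8:77610860-77769682, plus strand) starts 162 bp from *Tmem184c* and runs opposite *Ednra*, the endothelin A receptor. Its 1 Input bin (chr8:77700000-77724999), which holds the *Ednra* start, had 10 pairs and 9 in H3K27me3-RADIP. The 4 bins listed in H3K27me3-RADIP alone held 8, 10, 7 and 7 pairs, all of them over its own gene, and no DNA tag lay outside the gene in either table (0 of 10 and 0 of 41). The Input bin lies wholly inside the gene, so the Input 0 follows from which bins were listed. *Ednra* RNA went from 19 pairs in Input to none listed in H3K27me3-RADIP, 7 of the 19 in these bins. *Slc10a7* RNA had 37 and 29 pairs there, and coding pairs in all were 52 and 37 (-0.61, -1.26 to 0.03). This was the one lncRNA of the 8 whose bins held fewer coding pairs after selection.

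*2500002B13Rik* (chr8:57488054-57508877, plus strand) starts 194 bp from *Sap30*, a subunit of a histone deacetylase complex, and ends 3.03 kb from *Hmgb2*, an architectural chromatin protein. Its own bins held 17 and 11 pairs in Input and 10 and 8 in H3K27me3-RADIP. The 3 bins off the gene, at chr8:57400000-57424999, chr8:57450000-57474999 and chr8:57525000-57549999, had 8 pairs each in Input and were not listed in H3K27me3-RADIP. DNA tags outside the gene went from 34 of 52 (65.4%, 50.9% to 78.0%) to 6 of 18 (33.3%, 13.3% to 59.0%). Tags within 2 kb of a coding start numbered 5 of 52 and 2 of 18, with 3 and 0 at *Sap30* and 2 and 2 at *Hmgb2*. Coding RNAs in its bins did not follow it, with 86 pairs in Input and 99 in H3K27me3-RADIP (0.09, -0.35 to 0.52), of which *Galnt7*, which encodes a glycosyltransferase, had 73 and 80 and *Hmgb2* had 13 and 19. No tag came within 80448 bp of *Hand2*, a transcription factor of heart and limb, and *Hand2* RNA was listed in neither table.

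**Figure D5:**
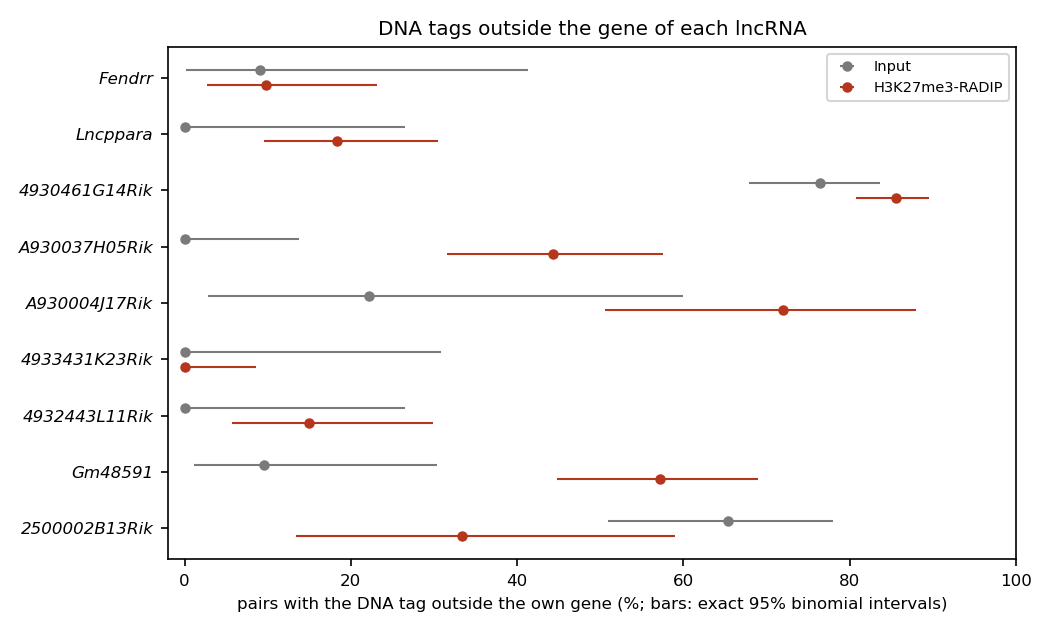
Share of each lncRNA's pairs with the DNA tag outside its own gene in Input (grey) and H3K27me3-RADIP (red), with exact 95% binomial intervals. Bins that Input does not list enter the H3K27me3-RADIP shares of *A930037H05Rik* (0% and 44.3%) and *Gm48591* (9.52% and 57.1%), and *2500002B13Rik* is the only one with a lower share in H3K27me3-RADIP. For *Lncppara*, *4932443L11Rik* and *4933431K23Rik* the only bin listed in Input lies inside the gene, which fixes their Input share at 0%.

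Over all 9 lncRNAs, 133 of 275 pairs (48.4%) in Input and 337 of 619 (54.4%) in H3K27me3-RADIP had the DNA tag outside the own gene, beside 47.6% and 55.9% over all lncRNAs. Without *4930461G14Rik* the shares were 25.7% and 31.5%. Their pairs were short in reach. The share over 100 kb apart was 9.09% (5.97% to 13.1%) in Input and 12.8% (10.2% to 15.7%) in H3K27me3-RADIP, against 34.4% and 41.6% over all lncRNAs, and the median distance was 11.5 kb and 16.6 kb, against 30.5 kb and 58.5 kb. At a q-value limit of 0.01 the share over 100 kb was 6.19% in Input and 4.60% in H3K27me3-RADIP, so the order of the conditions turned round. Exonic RNA tags made up 11.6% and 9.21%, against 28.3% and 36.3%. Of the 32 and 57 exonic tags of the 9, *A930004J17Rik* alone gave 9 and 25, all of its pairs. The shares over all lncRNAs are again pooled over pairs, and the paper traces the added exonic lncRNA tags in H3K27me3-RADIP largely to *Malat1*. Lines that repeated another line's positions made up 6.18% and 11.6% of the pairs, and 7.71% and 10.3% over all lncRNAs. RNA and DNA tags overlapped in 5.09% and 3.39%. The gene bodies of the 9 held 41.3% (*A930004J17Rik*) to 52.2% (*Fendrr*) G and C, against quartiles of 42.7% and 48.2% over the shared lncRNAs.

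Coding RNAs were not used in choosing the lncRNAs, but they are counted in bins that the lncRNA pairs chose, and 24 of the 46 entered by being listed in H3K27me3-RADIP alone. In the 46 bins they had 1211 Input pairs and 2128 H3K27me3-RADIP pairs, a ratio of 1.62 per library total (1.51 to 1.74), where all coding pairs gave 0.994 and the coding pairs in all 3855 bins with any lncRNA gave 1.16. Coding RNA and bin combinations went from 66 to 109, with 58 in both tables, 8 in Input alone and 51 in H3K27me3-RADIP alone. Over all coding RNA and bin combinations 55.8% were in both, 16.9% in Input alone and 27.3% in H3K27me3-RADIP alone. The ratio over the 58 was 1.27 (1.18 to 1.37). The ratio was 1.61 (1.42 to 1.82) in the 18 bins where both tables listed the lncRNA, 1.70 (1.55 to 1.86) in the 24 that H3K27me3-RADIP alone listed, and 1.08 (0.80 to 1.44) in the 4 that Input alone listed. Of the 36 bins with coding pairs in both tables, 17 were higher by at least 0.5 on the log2 scale, where 32.9% of the 2322 bins with lncRNA and coding pairs in both tables were. Another 6 bins had coding pairs in H3K27me3-RADIP alone, 2 in Input alone and 2 in neither. The number of DNA fragments from a bin and the number of RNA molecules of a lncRNA both enter every pair, and whether DNA of these bins was more abundant after selection was not tested.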

How the data were processed

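RADICL-seq pairs of PGK12.1 mESCs without selection (Input) and after selection for H3K27me3 (H3K27me3-RADIP) were compared. Per the labels there were 8 libraries per condition, and the authors merged them into 1 table each, and the comparison is between these 2 tables. The authors split reads at the adaptor, mapped tags uniquely to mm10 (CASAVA 1.8.2, STAR 2.5.0a and BWA 0.7.15-r1140 are named in the submitters' processing notes), assigned RNA tags to GENCODE genes by strand, and kept pairs by a negative binomial background model. The deposited numerical values used are q-values (adjusted p-values), one per RNA and bin, and all were checked to be at most 0.1. Lines per RNA and 25-kb bin were counted here, with Python 3.11.15, numpy 2.4.6, pandas 2.3.3, scipy 1.17.1 and matplotlib 3.10.9.

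Tables were scaled for lncRNA fold changes by TMM (trims of 30% and 5%, factor 1.09) and for coding pairs by library totals (1.08). Intervals are exact (Clopper–Pearson, 95%) and cover counting error only. At 1305107 and 1415135 pairs, 3 pairs are 0.000230% and 0.000212%. The counting and scaling code was tested on simulated data. Gene positions came from GENCODE M21, older than the study's release, on the same build. A coding start was the start of any annotated transcript of a protein-coding gene. The lncRNAs, named genes and alternatives were chosen with earlier results of these data known. Named genes were, per lncRNA, the 2 coding RNAs with most pairs in its bins, the nearest and overlapping coding genes, transcription factor or signalling genes that start in its bins, genes the study names as its targets, and the RNAs sharing most bins. 1 gene under this rule is not reported here. Others were named after their values were seen. Alternatives were other scalings, a q-value limit of 0.01, distinct positions, gene identifiers, at least 10 pairs, 50-kb bins, a 25-kb margin, distance from the gene edge and leaving out *4930461G14Rik*.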

Additional observations from a re-analysis of the deposited data

How the results depend on the processing

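No paired analysis was possible because the replicates are merged in the tables. At a q-value limit of 0.01 the log2 fold change was 0.75 for *4933431K23Rik*, 0.82 for *4932443L11Rik*, 0.74 for *A930004J17Rik*, 0.67 for *A930037H05Rik* and 2.37 for *Gm48591*. The 8 higher lncRNAs became 5 over bins in both tables and 3 with unlisted bins filled, both added after the data were seen. The fill may exceed what an unlisted bin could hold. *4933431K23Rik* was -0.28 and -0.29 under these, *A930037H05Rik* was -0.052 with filled bins, and *2500002B13Rik* moved from -1.66 to -0.76 and -0.54. Combinations in H3K27me3-RADIP alone were 13 at a q-value limit of 0.01 and 13 at 10 pairs or more, and those in Input alone were 2 at that q-value limit and 2 with 50-kb bins. Without *4930461G14Rik* 11 combinations were in both tables, and pairs outside the own gene were 25.7% in Input and 31.5% in H3K27me3-RADIP and those over 100 kb 1.97% and 4.21%, so most pairs over 100 kb were of this lncRNA. Over 25 kb outside the gene lay 26.9% and 30.9%. At a q-value limit of 0.01 pairs outside the gene in Input were 41.2%, and pairs over 100 kb were 6.19% in Input and 4.60% in H3K27me3-RADIP, the reverse of the order at 0.1. The coding ratio stayed within its interval under the 5 alternatives run on it, but was 1.27 over the 58 coding RNA and bin combinations in both tables. Merged replicates, few pairs per lncRNA and the listing limit are what bounds these values.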
